A study of Drosophila melanogaster with 12 samples.

Results

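The comparison concerns RNA recovered with myc-tagged AGO3 and RNA recovered with myc-tagged Piwi in OSC, a cultured line of Drosophila melanogaster ovarian somatic cells. These are 2 of the 12 libraries of a series on Krimper in the piRNA pathway, chosen by their labels, with 1 library each. Both libraries came from OSC in which krimp was knocked down, and in both the tagged protein was expressed ectopically. Per the labels, myc-AGO3 was recovered with an antibody to AGO3 and myc-Piwi with an antibody to the myc tag, so the bound protein and the antibody cannot be told apart. A library of OSC without krimp knockdown, or without a tagged protein, was not analysed here, and the knockdown itself was not measured. The 9 libraries of female ovaries used beside them are named here by genotype, with no allele in the labels. From krimp mutant ovaries there were RNA bound to Piwi or Aub and total small RNA. RNA bound to AGO3 came from aub mutant ovaries. From krimp heterozygous ovaries, the control of the krimp mutant, there were RNA bound to Piwi, Aub or AGO3 and total small RNA. The last was RNA bound to AGO3 from wild-type OregonR ovaries. A further OSC library, myc-Aub, also carries the krimp knockdown.

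piRNAs are small RNAs that guide Piwi, Aub and AGO3, the Argonaute proteins of the Piwi clade in flies, against transposable elements. Ovarian somatic cells are known for a simple pathway that loads piRNAs beginning with U (1U) into Piwi, and they normally lack Aub and AGO3. In germ cells, AGO3 is known to carry mostly piRNAs with A at position 10 (10A), because they are made by Aub cleavage opposite a 1U guide, the cycle called ping-pong. Krimper is a germline Tudor domain protein that binds AGO3. Length, position 1 and position 10 were therefore used to describe the RNA recovered with ectopic AGO3 in somatic cells. RNA held by AGO3 and RNA carried over in the recovery cannot be told apart here.

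The files list each distinct sequence of 20 to 30 nt with its read count, and list a sequence only from 100 reads, so an unlisted sequence had at most 99. The myc-AGO3 library listed 931 sequences with 390366 reads, and the myc-Piwi library 860 sequences with 153885 reads. The listed totals are not the depths of the libraries, which are unknown. With 1 library a group there is no replicate check and no p-value, and exact Clopper-Pearson 95% intervals cover counting error only. Bases are printed as in the files with T for U, and position 1 is the 5′ terminal base.

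Sequences that shared any 15 nt with 2S rRNA, a short insect ribosomal RNA of piRNA size, were set aside. They made up 45.7% of listed myc-AGO3 reads (95% interval 45.6 to 45.9) and 1.08% of listed myc-Piwi reads (1.03 to 1.13). A high share was not particular to myc-AGO3. It was 93.7% in aub mutant AGO3, 83.0% in OregonR AGO3, 66.3% in krimp heterozygous Aub and 53.8% in krimp mutant Aub. Bound RNA with less was krimp mutant Piwi at 24.5%, krimp heterozygous Piwi at 7.73%, myc-Aub at 6.78% and krimp heterozygous AGO3 at 6.30%. The full 30 nt molecule was the most abundant sequence of both myc-AGO3 and myc-Piwi. The forms below, shown because 2S rRNA was what the myc-AGO3 library held most of, are the most abundant exact parts of 2S rRNA in that library. The annotated 2S rRNA genes lie in the ribosomal DNA of chromosomes X and Y, and capitals mark the shortest form within the longer ones.
full length, 30 nt: TGCTTGGACTACATATGGTTGagggttgta
1 base shorter at the 3′ end, 29 nt: TGCTTGGACTACATATGGTTGagggttgt
short form, 21 nt: TGCTTGGACTACATATGGTTG
The full form had 122740 reads, or 31.4% of listed reads, in myc-AGO3 and 1286 reads, or 0.836%, in myc-Piwi. The 29 nt form had 24676 reads in myc-AGO3 and 180 in myc-Piwi. The 21 nt form had 6073 reads in myc-AGO3 and was unlisted in myc-Piwi. All 3 share the 5′ end of the molecule and differ at the 3′ end. In all, 45 sequences were set aside from myc-AGO3, of which 27 were exact parts of 2S rRNA, and 3 from myc-Piwi, all exact parts. What remained was 886 sequences with 211824 reads in myc-AGO3 and 857 sequences with 152226 reads in myc-Piwi, so the lists were of nearly equal length. All shares below are of these remaining reads unless stated otherwise.

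Reads recovered with myc-AGO3 had no preferred length, while those recovered with myc-Piwi had the narrow size range of piRNAs. Every length from 20 to 30 nt held between 5.42% and 12.1% of myc-AGO3 reads, with 22 nt the most common. In myc-Piwi, 27 nt was the most common at 28.7%, and the rarest length, 20 nt, held 0.0742%. The mean length was 24.59 nt in myc-AGO3 and 26.55 nt in myc-Piwi, with standard deviations over reads of 3.10 and 1.34 nt. Lengths of 25 to 28 nt held 35.5% of myc-AGO3 reads (95% interval 35.3 to 35.7) and 89.0% of myc-Piwi reads (88.9 to 89.2). At the short end, 20 to 22 nt held 32.1% of myc-AGO3 reads, in 262 sequences, and 0.839% of myc-Piwi reads, in 7 sequences. At 30 nt, above the 29 nt to which libraries were size-selected per the labels, the shares were 8.76% in myc-AGO3 and 1.32% in myc-Piwi.

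**Figure D1:**
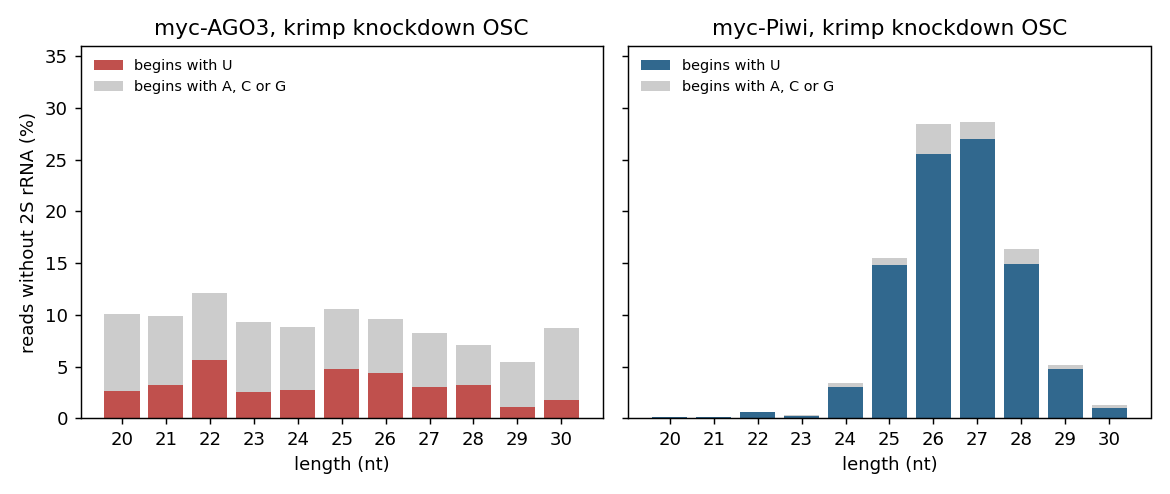
Share of reads without 2S rRNA (y axis, percent) at each length (x axis, nt), with myc-AGO3 on the left and myc-Piwi on the right. The coloured part of each bar is reads that begin with U. Reads of myc-AGO3 spread over all lengths, at most 12.1% at any one, and those of myc-Piwi peak at 26 and 27 nt and mostly begin with U.

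U at the first base, the mark of piRNAs made by the somatic pathway, was on 34.8% of myc-AGO3 reads (95% interval 34.6 to 35.0) and on 92.1% of myc-Piwi reads (91.9 to 92.2). The other first bases in myc-AGO3 were A at 29.1%, G at 21.4% and C at 14.7%. In myc-Piwi they were A at 3.17%, C at 2.87% and G at 1.89%. Counting each sequence once, 307 of 886 myc-AGO3 sequences and 782 of 857 myc-Piwi sequences began with U. Among 23 to 29 nt reads alone, 36.7% began with U in myc-AGO3 and 92.2% in myc-Piwi, so the gap was nearly as large within that length range. U at positions 2 to 20 averaged 23.9% in myc-AGO3 and 31.6% in myc-Piwi. Position 1 of myc-AGO3 stood above every later position of its own reads, where U reached at most 30.95%, by a few percentage points. In myc-Piwi the highest later position had 39.5% U.

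A at position 10 was on 24.3% of myc-AGO3 reads (95% interval 24.1 to 24.5) and on 23.3% of myc-Piwi reads (23.1 to 23.6). Neither share stood out from the rest of the sequence. Over positions 2 to 20 without position 10, A averaged 25.2% in myc-AGO3, with a range of 20.1% to 31.2%, and 24.9% in myc-Piwi, with a range of 19.7% to 35.6%. Counting each sequence once, the order turned, at 22.9% for myc-AGO3 (95% interval 20.2 to 25.8) and 25.1% for myc-Piwi (22.2 to 28.1), and these intervals overlap. Measured the same way, AGO3 of krimp heterozygous ovaries, recovered with another AGO3 antibody, had 75.2% 10A and 35.7% 1U. AGO3 of OregonR ovaries had 64.05% 10A and 20.4% 1U, and AGO3 of aub mutant ovaries 53.65% 10A and 32.4% 1U. Ovary AGO3 thus had 1U shares from below to near that of somatic myc-AGO3, and in each library a higher 10A share. Reads with neither 1U nor 10A were the largest of the 4 combinations in myc-AGO3, at 51.0%, and made up 6.48% of myc-Piwi. Reads with 1U and not 10A were 24.8% of myc-AGO3 and 70.2% of myc-Piwi. The form typical of germline AGO3, 10A without 1U, was 14.2% of myc-AGO3, 1.44% of myc-Piwi and 53.6% of krimp heterozygous AGO3 reads.

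**Figure D2:**
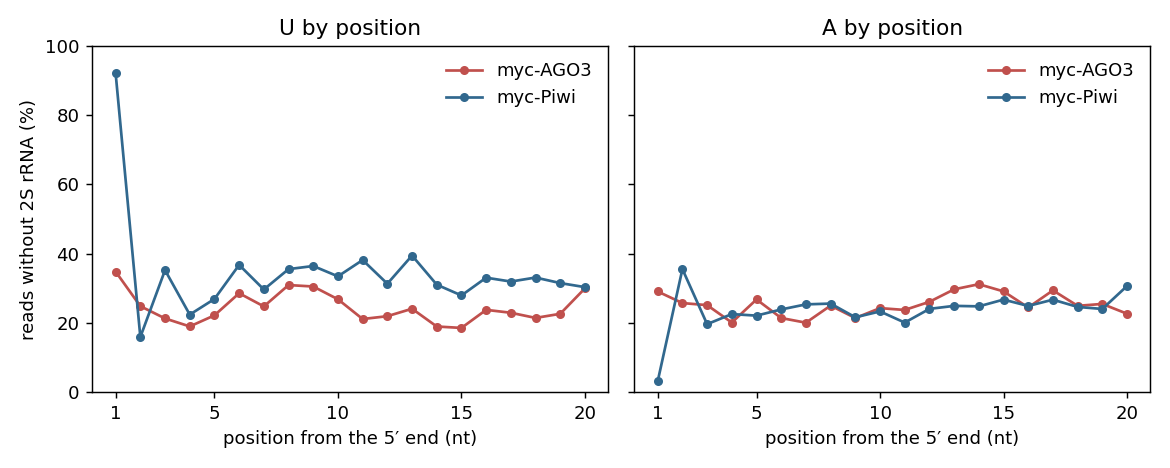
Share of reads without 2S rRNA (y axis, percent) with U (left) or A (right) at positions 1 to 20 from the 5′ end (x axis), for myc-AGO3 and myc-Piwi. The peak of U at position 1 is 92.1% in myc-Piwi and 34.8% in myc-AGO3, and neither library has a peak of A at position 10.

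Sequence pairs at the ping-pong distance were rare. Of the 886 myc-AGO3 sequences, 0 were matched by another myc-AGO3 sequence whose start is complementary to the leading 10 nt, against a mean of 0.3 sequences for overlaps of 11 to 20 nt. In myc-Piwi 1 of 857 sequences was counted, against a mean of 0 for the longer overlaps. A match of a sequence to its own start was not excluded. A pair of different sequences would count both, so this 1 was a self-match and not a pair. Between the libraries, 1 myc-AGO3 sequence had a partner in myc-Piwi. Sequences from opposite strands of 1 locus were as rare, since 3 myc-AGO3 sequences shared 15 nt with the reverse complement of another myc-AGO3 sequence, and 0 myc-Piwi sequences did so within their library. Partners with under 100 reads could not be seen.

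To ask how much of each library looked like fragments of longer RNAs, listed sequences were joined when they shared 15 nt on the same strand, a measure that uses neither length nor position 1. Breakdown of a longer RNA gives many overlapping pieces with shifting ends, whereas an Argonaute-bound piRNA tends to have a set 5′ end and a narrow length. In myc-AGO3, 67.1% of reads (95% interval 66.9 to 67.3) fell into 49 groups of 5 or more overlapping sequences. In myc-Piwi, 16.4% of reads (16.2 to 16.6) fell into 19 such groups. Sequences that overlapped no other held 12.9% of myc-AGO3 reads, 142 in number, and 35.6% of myc-Piwi reads, 351 in number. The 10 most abundant groups held 33.4% of myc-AGO3 and 13.1% of myc-Piwi reads. Such shares grow with the number of sequences listed, so the 2 libraries are compared only because their lists are of similar length. Krimp heterozygous Piwi of ovaries, with 49797 sequences, had 73.95% of reads in such groups. Krimp heterozygous AGO3, with 12537 sequences, had 66.4%. A large share alone therefore does not mark fragments. With the same minimum share of reads in both libraries, which left 517 myc-AGO3 sequences, the shares were 60.8% in myc-AGO3 and 16.4% in myc-Piwi.

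Runs of many lengths at 1 end were more common in myc-AGO3 than in myc-Piwi. At 36 places, 5 or more lengths ended in the same 12 nt, holding 33.6% of myc-AGO3 reads, and in myc-Piwi there were 0 such places, with at most 4 lengths at any 3′ end. Likewise 20 starts carried 5 or more lengths in myc-AGO3, with 19.0% of reads, against 0 in myc-Piwi. In myc-Aub 1 start did so, with 2.16% of reads. These counts were not made for ovary libraries, whose lists are longer. There, 3′ ends shared by 3 or more sequences held 46.2% of krimp heterozygous Piwi reads, against 47.9% in myc-AGO3. Starts shared by 3 or more held 77.7% of krimp heterozygous AGO3 reads, against 45.2% in myc-AGO3. The commonest start of each large group held a like share of grouped reads, 42.9% in myc-AGO3 and 44.6% in myc-Piwi. Of 23 to 29 nt myc-AGO3 reads, 28.6% began with U within the large groups and 55.0% outside them. The same shares in myc-Piwi were 89.6% within and 92.7% outside. Overlap and first base therefore moved together in myc-AGO3 and by far less in myc-Piwi, where most grouped sequences began with U. This was not particular to myc-AGO3, since in myc-Aub the shares were 63.8% within and 75.6% outside. Over all lengths, 1U was 31.3% within and 44.4% outside in krimp heterozygous AGO3, and 25.2% and 54.5% in myc-AGO3.

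The largest myc-AGO3 group shows what such a run looks like. It held 34 sequences and 24249 reads, or 11.4% of the library, and 7 of the 34 began with U. In it, 11 sequences ended at the same base and covered every length from 20 to 30 nt, each being the 3′ part of the next longer one. They had 3774 reads at 20 nt, 935 at 21 nt, 1216 at 22 nt, 1157 at 23 nt, 1387 at 24 nt and 1424 at 25 nt. The longer ones had 1271 reads at 26 nt, 1189 at 27 nt, 1805 at 28 nt, 2087 at 29 nt and 2595 at 30 nt. The counts were highest at 20 and 30 nt, the ends of the listed range, with no peak among the lengths of piRNAs, and 2 of the 11 began with U. The myc-Piwi library listed none of the 11. Total small RNA of ovaries listed those of 22, 23 and 24 nt, with 948, 1618 and 1447 reads in krimp mutant and 140, 192 and 241 reads in krimp heterozygous ovaries. The parent RNA was not identified here.

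**Figure D3:**
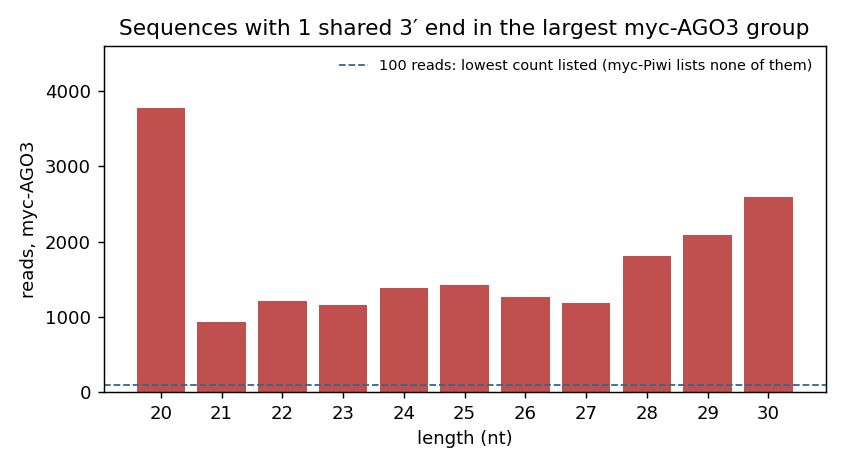
Reads in myc-AGO3 (y axis) of the 11 sequences of the largest group that share 1 3′ end, by length (x axis, nt). Every length is present, between 935 and 3774 reads, and the dashed line marks the 100 reads that a sequence needs to be listed, which none of the 11 reached in myc-Piwi.

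Other large groups of myc-AGO3 differed in which end was fixed. The second, with 25 sequences and 7069 reads, had 3 starts and 11 3′ ends. The third, with 16 sequences and 6873 reads, had 8 starts and 2 3′ ends, and none of its sequences began with U. Krimp heterozygous Piwi listed 10 of the 16, and 57 of all 886 myc-AGO3 sequences. Total small RNA listed 11 of the 16 in krimp heterozygous and 12 in krimp mutant ovaries. Of all 886, these counts were 122 and 146. The fourth had 24 sequences and 5836 reads over 10 starts and 14 3′ ends. The fifth had 5 sequences and 5032 reads at a single start and lengths of 20 to 30 nt. Of the 12 most abundant myc-AGO3 groups, none held a sequence that myc-Piwi listed. The largest myc-Piwi group was smaller, with 17 sequences and 3424 reads, or 2.25% of the library, and 15 of its 17 sequences began with U.

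Length and first base were then combined with overlap. Reads of 23 to 29 nt with 1U were 21.7% of myc-AGO3 (95% interval 21.5 to 21.9) and 90.2% of myc-Piwi (90.1 to 90.4). In myc-AGO3, 11.7% of all reads had these features within a large group and 9.99% outside one. In myc-Piwi 14.0% did so within and 76.2% outside. Reads without these features and in a large group, the ones most like fragments by these measures, were 55.4% of myc-AGO3 and 2.35% of myc-Piwi. Most reads of ovary AGO3 also lack these features. In krimp heterozygous AGO3, 32.4% of reads were 23 to 29 nt long with 1U, and 66.4% were in large groups. This class therefore cannot separate piRNAs of AGO3 from fragments. Reads with neither the features nor a large group were 22.9% of myc-AGO3 and 7.41% of myc-Piwi.

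**Figure D4:**
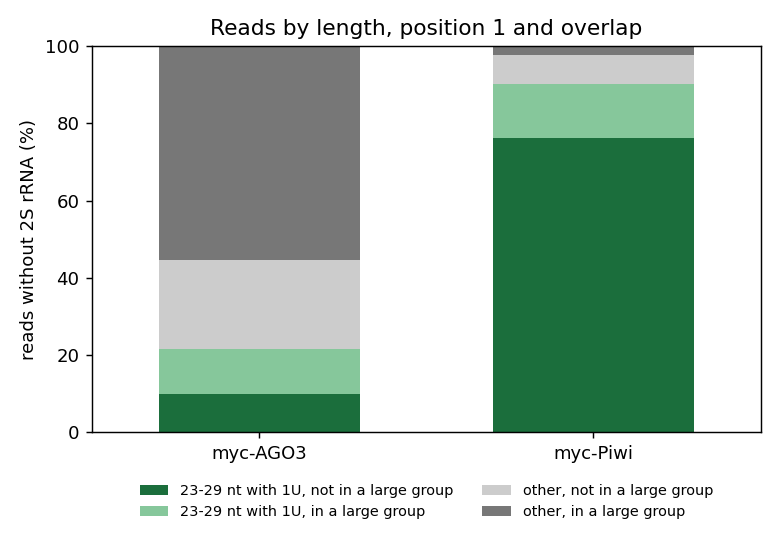
Reads without 2S rRNA (y axis, percent) of myc-AGO3 (left) and myc-Piwi (right), divided by whether they are 23 to 29 nt long with 1U and whether they belong to a group of 5 or more overlapping sequences. Reads of 23 to 29 nt with 1U outside large groups are 9.99% of myc-AGO3 and 76.2% of myc-Piwi.

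Listing in Piwi libraries of ovaries enters none of these definitions. Of the 113 sequences of 23 to 29 nt with 1U outside large groups, 35 were listed in Piwi of krimp heterozygous or krimp mutant ovaries, and 45 in myc-Piwi. Of the 102 such sequences within large groups, 0 were listed in either ovary library and 0 in myc-Piwi. In myc-Piwi itself, ovary Piwi listed 309 of 662 such sequences outside large groups and 37 of 103 within. Sequences without these features were listed there too. In myc-AGO3, ovary Piwi listed 7.63% of the reads without these features in large groups and 22.7% of those outside. Of all myc-AGO3 reads, 12.9% belonged to sequences listed in ovary Piwi, and those with the features made up 3.44%. In myc-Piwi these shares were 47.7% and 44.3%. By reads, krimp heterozygous Piwi listed the sequences of 9.18% of myc-AGO3 reads (95% interval 9.06 to 9.31) and 36.5% of myc-Piwi reads (36.2 to 36.7). Sequences that none of the 9 ovary libraries listed held 73.8% of myc-AGO3 reads and 51.6% of myc-Piwi reads.

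RNAs of microRNA size formed a part of myc-AGO3 that overlapped with the reads listed in ovary Piwi. Sequences of 21 to 23 nt with at least 10000 reads in total small RNA of krimp heterozygous ovaries were 25 in number and 7.48% of reads in myc-AGO3 (95% interval 7.37 to 7.59), and 3 in number and 0.530% of reads in myc-Piwi (0.494 to 0.567). Of the reads of this class, 60.9% in myc-AGO3 and 27.9% in myc-Piwi belonged to sequences that an ovary Piwi library listed. The sequences were not named, since no reference sequence of microRNAs was used.

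Few sequences were listed by both libraries. The 52 shared sequences held 6.21% of myc-AGO3 reads (95% interval 6.11 to 6.31) and 9.51% of myc-Piwi reads (9.36 to 9.66). They were 5.87% of the myc-AGO3 list and 6.07% of the myc-Piwi list. For comparison, myc-Aub of the same krimp knockdown OSC, recovered with an antibody to Aub, shared 269 sequences with myc-Piwi, which held 41.7% of myc-Piwi reads. With myc-AGO3 it shared 67 sequences, which held 8.57% of myc-AGO3 reads. The myc-Aub library had 73.1% 1U and a mean length of 25.73 nt, nearer to myc-Piwi than to myc-AGO3 in both.

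The shared sequences were mostly piRNA-like, as was the myc-Piwi list that defines them. Of the 52, 49 were 23 to 29 nt long and 45 of these began with U. The shared 23 to 29 nt sequences made up 3.96% of myc-AGO3 reads, with 88.7% 1U and 14.4% 10A. The 520 myc-AGO3 sequences of that size which myc-Piwi did not list made up 55.1% of reads, with 33.0% 1U and 25.1% 10A. Of the 52, 47 were also listed in myc-Aub and 27 in a Piwi library of ovaries. Of all 857 myc-Piwi sequences these counts were 269 and 376, and of all 886 myc-AGO3 sequences 67 and 83. In the myc-Piwi list 91.25% of sequences begin with U and 97.55% are 23 to 29 nt long. Because sharing was defined with that list, the 1U share and the length of the shared part are tied to it.

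The other 3 shared sequences were 21 or 22 nt long, began with U, and held 36.3% of the shared myc-AGO3 reads and 5.57% of the shared myc-Piwi reads. The leading one, a 22 nt sequence, had 2571 reads or 1.21% in myc-AGO3 and 225 reads or 0.148% in myc-Piwi, a ratio of 8.21. It had 346382 reads in total small RNA of krimp heterozygous ovaries. Another 22 nt sequence had 1148 reads in myc-AGO3 and 375 in myc-Piwi, a ratio of shares of 2.2. The 21 nt one had 1050 reads in myc-AGO3 and 206 in myc-Piwi, a ratio of 3.66. Across all 52, the ratio of the myc-AGO3 share to the myc-Piwi share had a median of 0.567 and ran from 0.0918 to 8.21. It was above 1 for 8 sequences and below 1 for 44. The lowest belonged to a 27 nt 1U sequence with 126 reads in myc-AGO3 and 986 in myc-Piwi. Each share is of listed reads without 2S rRNA, so a ratio depends on whatever else each library holds.

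**Figure D5:**
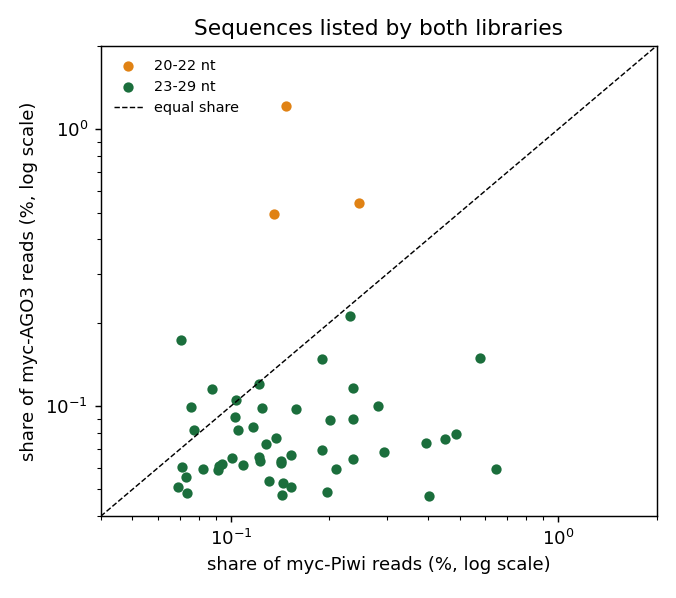
Share of myc-AGO3 reads (y axis, percent, log scale) against share of myc-Piwi reads (x axis, percent, log scale) for the 52 sequences listed by both libraries. The 3 sequences of 21 and 22 nt lie above the line of equal share, and most of the 49 sequences of 23 to 29 nt lie below it.

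The most abundant sequences differed in the same features. The 10 leading myc-AGO3 sequences held 11.1% of its reads, 4 began with U, 5 were 23 to 29 nt long and 1 was listed in myc-Piwi. Of these 10, 6 belonged to the largest group, so they are not separate instances. The 10 leading myc-Piwi sequences held 6.01% of its reads, all began with U, all were 23 to 29 nt long and 2 were listed in myc-AGO3. The first of myc-AGO3 was the 20 nt member of the run described above, at 1.78% of reads. It was unlisted in myc-Piwi, where 99 reads would be 0.0650%, a ratio of shares of at least 27.4. The second, at 1.54%, was a 30 nt sequence of the fifth group that began with G, unlisted in myc-Piwi and in total small RNA of both krimp genotypes. The fifth, at 1.14%, was a 22 nt sequence with 76777 reads in total small RNA of krimp heterozygous ovaries. The sixth, at 1.01%, was 25 nt long with both 1U and 10A, and it was unlisted in myc-Piwi, in myc-Aub and in the Piwi and total libraries of both krimp genotypes. It belonged to a group of 9 sequences in which 93.7% of reads had 1 start.

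Of the leading myc-Piwi sequences, the first was 29 nt long with 1U and 10A, at 0.770% of reads. It was unlisted in myc-AGO3, where 99 reads would be 0.0467%, a ratio of shares of at least 16.5 in favour of myc-Piwi. It had 183 reads in myc-Aub, 4990 in Piwi of krimp mutant ovaries and 1666 in Piwi of krimp heterozygous ovaries. The second, a 25 nt 1U sequence at 0.680%, had 576 reads in krimp heterozygous Piwi. Those listed in both OSC libraries were the third and the sixth. The sixth, 27 nt long with 1U, had 316 reads in myc-AGO3, 876 in myc-Piwi and 960 in myc-Aub.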

How the data were processed

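The members, measures and lists were chosen with earlier results of these data known. The deposited files give raw read counts per distinct sequence, in whole numbers from 100 up. Per the labels' protocols, RNAs of 18 to 29 nt were gel-selected and made into libraries with the TruSeq Small RNA kit. The genome build was dm3, per the submitters' processing notes. The aligner, trimmer and filters were not given in the sources used here.

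The reference for 2S rRNA was the most abundant 30 nt sequence of Aub from krimp heterozygous ovaries. The chromosomes of its genes were taken from RefSeq (Release 6 plus ISO1 MT), where all 7 annotated copies and pseudogenes are 30 nt long. Overlapping sequences were joined by single linkage over shared 15 nt, and 3′ ends and starts were compared over 12 nt. Pairing was the match of leading 10 nt to a reverse complement. The joining and pairing steps were tested on simulated data. The planned share of known RNAs was not computed, because apart from 2S rRNA no reference sequences of known RNAs were at hand. Other sequences are described by length and bases for the same reason. The described sequences are the 10 most abundant of each library and the leading shared one. The other shared sequences and the large groups described were picked after their values were seen. Python 3.11.15, scipy 1.17.1 and matplotlib 3.10.9 were used.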

Additional observations from a re-analysis of the deposited data

How the results depend on the processing

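Values here are differences, myc-AGO3 minus myc-Piwi, in percentage points, or in nt for the mean length. As reported they were -57.3 for 1U, 0.953 for 10A, -1.96 nt for mean length, -68.6 for 23 to 29 nt with 1U, -3.3 for shared reads, -27.3 for reads listed in krimp heterozygous Piwi and 50.7 for large groups. The measure of large groups, its alternatives, the equal minimum share and the removal of the largest group were added after the data were seen. With each sequence counted once they were -56.6 for 1U, -2.18 for 10A (sign changed), -1.93 nt, -65.0 for 23 to 29 nt with 1U, -0.199 for shared reads, -26.9 for heterozygous Piwi and 47.9 for large groups. With 2S rRNA kept they were -30.9 for 1U, -9.02 for 10A (sign changed), -0.08 nt, -69.8 for 23 to 29 nt with 1U, 30.9 for shared reads (sign changed), 12.9 for heterozygous Piwi (sign changed) and 66.0 for large groups. In that setting 2S rRNA, which begins with U and is listed in myc-AGO3, myc-Piwi and heterozygous Piwi, enters the shares. Removal by 12 shared nt changed none of the 7. With only 23 to 29 nt they were -55.5 for 1U, 1.51 for 10A, -0.84 nt, -2.48 for shared reads, -28.5 for heterozygous Piwi and 45.6 for large groups. From 200 reads up they were -58.7 for 1U, 6.29 for 10A, -1.92 nt, -72.2 for 23 to 29 nt with 1U, -0.35 for shared reads, -30.0 for heterozygous Piwi and 46.5 for large groups. Without the most abundant sequence of each library they were -56.6 for 1U, 1.99 for 10A, -1.86 nt, -68.1 for 23 to 29 nt with 1U and -26.6 for heterozygous Piwi. With the same minimum share, 140 reads in myc-AGO3, they were -56.5 for 1U, 1.25 for 10A, -1.94 nt, -69.1 for 23 to 29 nt with 1U, -26.2 for heterozygous Piwi and 44.4 for large groups. Without the largest group of each library they were -54.7 for 1U, -1.98 nt, -66.9 for 23 to 29 nt with 1U, -27.0 for heterozygous Piwi and 48.4 for large groups. For large groups, joining by 12 nt gave 48.9, by 18 nt 52.0, and groups of 10 or more 40.8. Other causes of these changes were not tested. No paired analysis was possible because each group has 1 library, and for the same reason no replicate could be left out. The read minimum hides sequences under 100 reads, so the numbers of shared and paired sequences are lower limits of what the libraries held. Shares of reads could be higher or lower with all reads included.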

Other observations

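Total small RNA of krimp heterozygous ovaries listed the sequences of 19.7% of myc-AGO3 reads and 20.99% of myc-Piwi reads. After leaving out those also listed in an ovary Piwi library, 9.47% of myc-AGO3 reads and 0.719% of myc-Piwi reads were left. Total small RNA of krimp mutant ovaries listed 22.9% of myc-AGO3 reads and 13.2% of myc-Piwi reads, with 12.96% of myc-AGO3 and 0.613% of myc-Piwi reads after the same step.

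The base content of the 2 libraries also differed beyond position 1. Over positions 2 to 20, G averaged 29.5% of bases in myc-AGO3 and 23.3% in myc-Piwi, and U 23.9% in myc-AGO3 and 31.6% in myc-Piwi. The myc-Aub library had 22.7% G and 32.4% U over the same positions. A single listed myc-AGO3 sequence carried an unread base, with 545 reads, and it was among those set aside as 2S rRNA.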
